A study of Rattus norvegicus with 107 samples.

Results

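Colon transcripts of weanling rats at postnatal day (PND) 22 were set against those of neonates at PND 3, over all probes of the array. Samples were chosen by age and tissue, 6 colons of PND 22 and 6 of PND 3, which make 12 of the 107 arrays of the series. Both groups were Sprague Dawley pups of adjusted litters with no treatment labelled, and the labels set them apart by age alone. The other colon ages (embryonic day 21 and PND 1 to 15) served to estimate the spread and to place each change in time, and brain arrays only entered the normalisation. The tissue was rinsed of its contents and no cell layer is named as isolated, so that epithelium, connective tissue, muscle and nerve may all contribute RNA. In such bulk samples fewer cells of a type and less RNA per cell cannot be told apart. The litter of each sample, and whether a sample pooled pups, is not given in the sources used here, so that p-values measure the spread between samples. The genes of the sialic acid (Sia) pathway were left out of the genes named below.

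The large intestine of the newborn rat carries villus-like folds, and its surface cells absorb milk nutrients much like those of the small intestine. During suckling these features disappear, and the colon takes up its adult work of absorbing salt, water and the short-chain fatty acids of the microbiota. Around weaning the pup moves from fat-rich milk to carbohydrate-rich chow, milk antibodies are lost, and the bacterial community becomes denser.

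Each array gave between 10416 and 12100 detected probes at PND 22 and between 10523 and 11517 at PND 3 (detection p below 0.05, set by negative control beads). Signals are in normalised units of the array, and the dimmest detected probe of an array reached 66.1 to 72.2, so that values below about this level have no resolved order. Arrays of 1 age correlated with each other at a mean r of 0.978 to 0.984 at PND 22 and of 0.988 to 0.989 at PND 3. Of the 12 markers of colon epithelium, 12 were detected in every sample of PND 22 and 10 in every sample of PND 3, the exceptions there being Car1 and Aqp8. Their summed signal had a lowest, median and highest value of 94264, 97123 and 105220.3 at PND 22, against 55310.4, 57629 and 59042 at PND 3, and 1 of the 12, Hoxd10, fell (-0.67 on the log2 scale).

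Marker genes of neighbouring organs were uneven over the samples of PND 22, and this is given before the results that it touches. Of 18 pancreas markers, 12 to 18 were detected at PND 22 and 5 to 10 at PND 3, and their summed signal had a lowest, median and highest value of 4869, 22797 and 57595 at PND 22, against 2671, 2917 and 3318 at PND 3. Replicates 1 to 4 of PND 22 held the high sums and replicates 5 and 6 the low ones. The 14 liver markers summed to 7718 in replicate 5 of PND 22 and to between 827 and 1967 in the other 5, against 1006 to 1787 at PND 3. The summed signal of 15 smooth muscle genes was 37824 and 47997 in replicates 1 and 2 of PND 22 and between 17676 and 25777 in the other 4, against 36980.0 to 42797 at PND 3. The 13 adipose and mesentery markers summed to 5454, 6039 and 7892 at PND 22, against 2692, 2975 and 3126 at PND 3, and here the ages did not overlap. Among them Lep was not detected at either age. The part of these tissues in each gene's change was not tested, and values without the samples concerned are given for results that they move most.

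**Figure D1:**
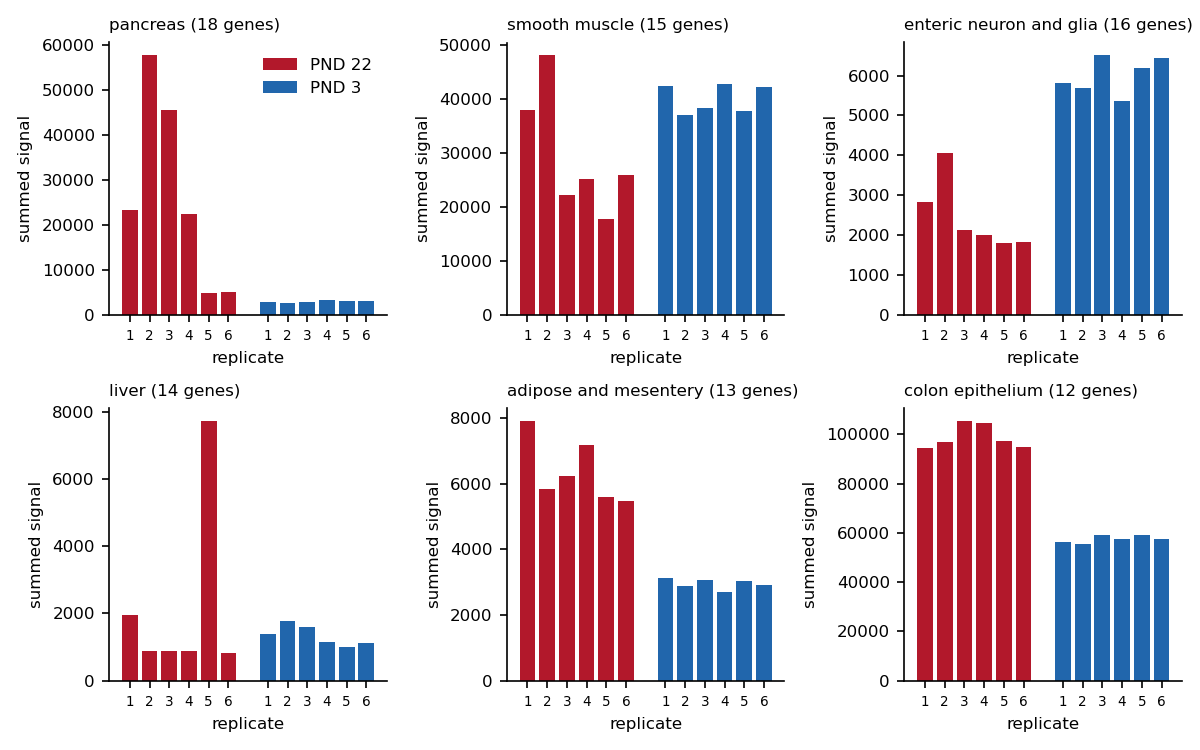
Summed normalised signal (y axis) of 6 gene lists in each of the 6 replicates of PND 22 (red) and of PND 3 (blue). Pancreas genes are high in replicates 1 to 4 of PND 22, liver genes in replicate 5, and smooth muscle genes are, within PND 22, highest in replicates 1 and 2, while colon epithelium genes stand between 94264 and 105220 in every PND 22 sample, against 55310 to 59042 at PND 3.

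A large part of the array changed between the neonate and the weanling. Carbonic anhydrase, pancreas and goblet cell genes were among the largest rises, and brush border, lipoprotein and fetal genes among the largest falls. At an adjusted p under 0.01 (limma, Benjamini-Hochberg over all 22523 probes) 5489 probes differed, which is 24.4%. Of these 2628 (11.7%) were higher at PND 22 and 2861 (12.7%) were lower. After scaling to the 75th percentile in place of quantile normalisation, 2529 were higher and 2120 lower, so that which direction had more probes depends on the scaling. Among 13337 named genes, each read from its brightest probe, 4041 (30.3%) differed, of which 1873 (14%) were higher and 2168 (16.3%) lower. In 1199 of the higher genes (8.99% of all named genes) and 1513 of the lower genes (11.3%) no sample of 1 age reached into the range of the other. The median change of all named genes was -0.01 on the log2 scale. A change of at least 2-fold was seen in 385 higher and 407 lower genes, at least 4-fold in 73 and 51, and at least 8-fold in 24 and 16.

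The 12 largest rises and the 12 largest falls come from genes past the threshold with separate ranges at the 2 ages and a detected signal throughout the age of higher level, which 8.66% of named genes met upward and 11% downward. By this rule each of the 24 genes had its 6 samples of PND 22 entirely above or entirely below its 6 samples of PND 3, which is a description and no test. Signals of a gene are given as the lowest, the median and the highest of the 6 samples. Fold changes are ratios of geometric means, and the error behind ± of a log2 change is its standard error in limma.

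**Figure D2:**
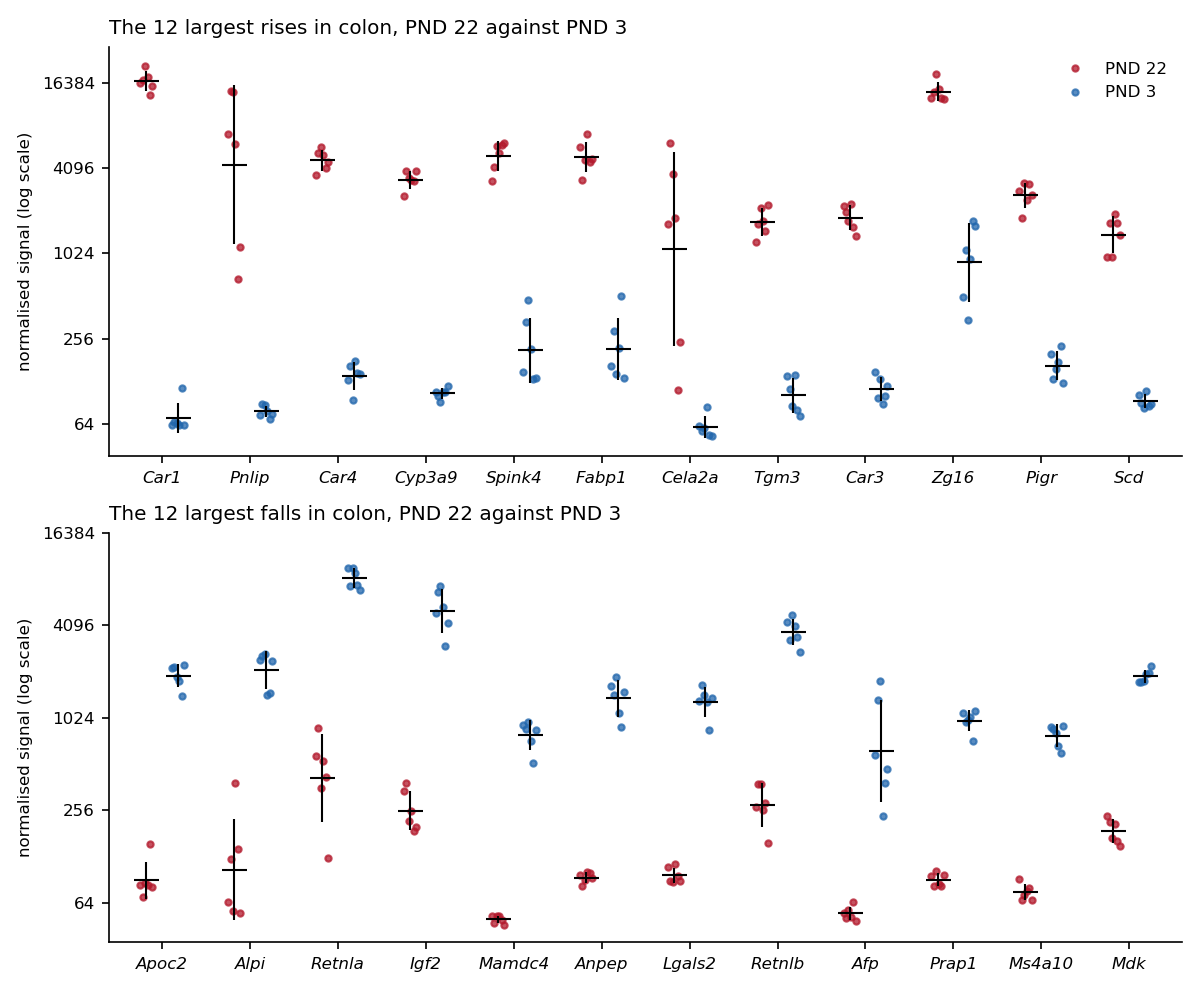
Normalised signal (y axis, log scale) of the 12 largest rises (top) and 12 largest falls (bottom) in each of 6 samples of PND 22 (red, left) and 6 of PND 3 (blue, right), with the geometric mean and SD of the log2 values in black. Pnlip and Cela2a spread over more than a 10-fold range within PND 22, whereas Car1 lies between 13569 and 21725 there, against 62.5 to 114 at PND 3.

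Carbonic anhydrases, which interconvert carbon dioxide and bicarbonate and so feed the exchange of sodium and chloride in the colon, held the largest rise of the array. Car1, the cytosolic form typical of colonocytes, had signals of 13569, 16859 and 21725 at PND 22, against 62.5, 64.02 and 114 at PND 3. Only 1 of the 6 neonatal samples was above the detection limit for Car1, so that the size of its rise is set by the background: the fitted fold was 241 (log2 change 7.91 ± 0.20, adjusted p = 1.23e-35), and 553 with normexp background correction. Car4, a form anchored to the outer cell membrane, had signals of 3644, 4818 and 5776 at PND 22, against 94.2, 144 and 178 at PND 3, a 33.5-fold rise (log2 change 5.07 ± 0.25, adjusted p = 1.12e-22). Car3, a form abundant in adipose tissue and skeletal muscle, had signals of 1354, 1862 and 2272 at PND 22, against 88.1, 109.5 and 149 at PND 3, and stood 16.3-fold higher (log2 change 4.02 ± 0.34, adjusted p = 1.84e-14). The adipose and mesentery markers named above were also higher at PND 22, and their part in the rise of Car3 was not tested. Counts of list members are set here against the 14% higher and 16.3% lower of all named genes. Of the 12 carbonic anhydrases measured, 8 rose and 1 fell, with a median log2 change of 1.05. The others that rose were Car9 (2.23), Car2 (1.77) and Car12 (1.38), besides Car5b (at least 1.31-fold higher) and Car13 (at least 1.08-fold), which were not detected in any sample of PND 3, while Car8, a relative without enzyme activity, had a log2 change of -1.07.

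Genes of salt and water transport of the colonocyte rose with them. Of 26 measured genes of this list 20 were higher at PND 22, 0 were lower, and the median log2 change was 1.24 (0 were lower also at an unadjusted p under 0.05 in limma). The sodium/hydrogen exchangers Slc9a2 and Slc9a3 were 9.07-fold (log2 change 3.18 ± 0.11, adjusted p = 4.83e-29) and 8.98-fold higher (log2 change 3.17 ± 0.19, adjusted p = 1.11e-19). Slc9a3 had signals of 3372, 4405 and 5327 at PND 22, against 410.3, 461 and 656 at PND 3. The chloride/bicarbonate exchanger Slc26a3 had signals of 1564, 1662 and 1756 at PND 22, against 191, 292 and 351 at PND 3, a 6.07-fold rise (log2 change 2.60 ± 0.19, adjusted p = 2.02e-16). Scnn1a, the alpha subunit of the epithelial sodium channel that aldosterone controls, was 4.72-fold higher (log2 change 2.24 ± 0.17, adjusted p = 1.49e-15). The beta subunit Scnn1b (log2 change 1.67) and the gamma subunit Scnn1g (0.38) rose too, and the mineralocorticoid receptor Nr3c2 (1.12) and Hsd11b2 (1.56), which keeps glucocorticoids from that receptor, were also higher. Carriers of short-chain fatty acids and other monocarboxylates, Slc5a8 (2.07) and Slc16a1 (1.85), and the colonic potassium pump Atp12a (1.77) were among the 20. Aqp8, a water channel of surface colonocytes, had signals of 202, 250.2 and 520.0 at PND 22, against 53.7, 93.8 and 153 at PND 3, and rose 3.00-fold (log2 change 1.59 ± 0.23, adjusted p = 8.58e-08).

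Genes of defence against foreign compounds and of the barrier of the mature epithelium were also among the largest rises. Cyp3a9, a cytochrome P450 of the 3A family, had signals of 2602, 3416 and 3887 at PND 22, against 90.8, 107 and 119 at PND 3, a 32.3-fold rise (log2 change 5.01 ± 0.16, adjusted p = 6.92e-31). Genes of this family are near-identical in parts, and the probe may read more than 1 of them. Of 39 measured genes of xenobiotic metabolism 17 rose and 2 fell (median log2 change 0.51). The sulfotransferase Sult2b1 was not detected in any sample of PND 3 and stood at least 3.53-fold higher at PND 22, and the glucuronosyltransferase Ugt1a6 was 3.62-fold and the quinone reductase Nqo1 3.60-fold higher. The members that fell were Aldh1a1, a retinal dehydrogenase (-1.55), and the glutathione transferase Gsta2 (-1.54). Tgm3, a transglutaminase that crosslinks proteins, had signals of 1237, 1693 and 2243 at PND 22, against 72.6, 98.9 and 140.4 at PND 3, a 16.8-fold rise (log2 change 4.07 ± 0.35, adjusted p = 3.59e-14). Of 24 genes of epithelial maturation and barrier 17 rose and 2 fell (median 0.49), led by the surface keratin Krt20 (4.65-fold), the transcription factors Elf3 (3.06-fold) and Klf4 (2.72-fold) and the tight junction protein Tjp3 (2.21-fold). The lower members, Krt7 and Prdm1, were not stable: 0 were lower without replicate 1 of PND 3, without replicates 1 and 2 or 1 to 4 of PND 22, and after scaling to the 75th percentile.

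Secreted products of goblet cells moved both ways. Spink4, a small protease inhibitor of goblet cells, had signals of 3319, 5567 and 6189 at PND 22, against 132, 183 and 476 at PND 3, and was 23.6-fold higher (log2 change 4.56 ± 0.40, adjusted p = 7.67e-14). Zg16, a lectin that goblet cells release into mucus and that was first known from pancreatic granules of the rat, had signals of 12610.3, 13492 and 18864 at PND 22, against 344, 1010.0 and 1737 at PND 3, a 15.98-fold rise (log2 change 4.00 ± 0.37, adjusted p = 4.11e-13). In the replicates 5 and 6 of PND 22, where pancreas genes were low, Zg16 stood at 12730.0 and 12610.3, and with replicates 1 to 4 left out its log2 change was 3.84. Retnlb, a resistin-like peptide of goblet cells, went the other way, with signals of 157, 279 and 382 at PND 22, against 2767, 3746 and 4775 at PND 3, and a 13.4-fold lower level (log2 change -3.74 ± 0.47, adjusted p = 2.77e-09). Retnla, its relative in the same family, had signals of 124, 479 and 881 at PND 22, against 6983, 8260.2 and 9741 at PND 3, and was 20.007-fold lower (log2 change -4.32 ± 0.49, adjusted p = 1.75e-10), or 36.2-fold without replicates 1 to 4 of PND 22. The Retnl genes resemble each other in sequence, so that the probes may share signal. Of 17 goblet cell genes 8 rose and 2 fell (median 0.44). Tff3, the main trefoil peptide of goblet cells, was the other that fell (-0.48). Its fall was not stable, as Retnlb alone was lower after scaling to the 75th percentile and without replicates 1 to 4 of PND 22.

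Pigr, the receptor that carries IgA across the epithelium into the lumen, was the largest rise among genes of immunity. Its signals were 1826, 2738 and 3191 at PND 22, against 124, 165 and 227 at PND 3, which is 15.96-fold (log2 change 4.00 ± 0.21, adjusted p = 5.31e-22). Pla2g2a, a phospholipase that kills Gram-positive bacteria, had signals of 1744, 3357 and 6073 at PND 22, against 289, 371 and 473 at PND 3, and rose 9.43-fold (log2 change 3.24 ± 0.30, adjusted p = 2.87e-13). Of 25 antimicrobial and microbial response genes 10 were higher and 2 lower (median 0.21). The chemokines Ccl28 (2.27) and Ccl20 (1.89) and the lectin Reg3g (1.94) were among those that rose, and Lcn2, a siderophore-binding protein, fell 6.59-fold (log2 change -2.72 ± 0.32, adjusted p = 6.42e-10). Of 28 genes of MHC and antigen presentation 16 rose and 0 fell (20 and 0 at an unadjusted p under 0.05 in limma, median 0.57), with RT1-A3 3.34-fold and the immunoproteasome subunit Psmb9 3.28-fold higher. Genes of the RT1 complex are highly similar and their probes may cross-read. Of 26 T and NK cell genes 6 rose, among them granzyme A, Gzma (3.44-fold), Gzmb (1.73-fold) and the chemokine Ccl5 (1.90-fold), and 0 fell (11 higher and 0 lower at an unadjusted p under 0.05). Of 15 B and plasma cell genes 5 rose, Pigr, which is an epithelial gene, included. The rise of Cd74, the invariant chain of MHC class II, (0.65, adjusted p = 0.00177) did not pass without replicate 1 of PND 22 (0.52, adjusted p = 0.0136). In both lymphocyte lists the median over members was 0.14 for T and NK cells and 0.15 for B and plasma cells, against -0.01 for all named genes. Of 27 macrophage, dendritic, mast cell and granulocyte genes 1 rose (Cd14, 2.15-fold) and 5 fell (18.5%).

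Fabp1, the liver-type fatty acid-binding protein of absorptive cells, and Scd, the desaturase that makes oleate, completed the epithelial and lipid genes among the largest rises. Fabp1 had signals of 3401, 4689 and 7088 at PND 22, against 135, 191 and 510.0 at PND 3, a 22.7-fold rise (log2 change 4.50 ± 0.32, adjusted p = 4.98e-17). Scd had signals of 958, 1527 and 1958 at PND 22, against 83.2, 89.7 and 109.9 at PND 3, a 14.9-fold rise (log2 change 3.90 ± 0.28, adjusted p = 1.44e-16), and its signals at PND 15 were already 1059, 2399 and 4515. Scd is abundant in fat cells too, and the part of adipose tissue in its rise was not tested. Of 17 lipid absorption genes 3 rose (17.6%), Fabp1 among them, and 4 fell (23.5%), with a median of -0.06, so that the list as a whole stood near all named genes.

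Digestive enzymes of the exocrine pancreas made up the remaining rises, and they were uneven between samples. Pnlip, pancreatic triglyceride lipase, had signals of 675, 6599 and 14347 at PND 22, against 69.3, 76.6 and 87.8 at PND 3, a 55.5-fold rise (log2 change 5.80 ± 0.37, adjusted p = 1.34e-18). In replicates 5 and 6 of PND 22 it stood at 675 and 1132, above every sample of PND 3 as the rule of choice required. Cela2a, a pancreatic elastase, had signals of 111, 1730.0 and 6189 at PND 22, against 52.4, 58.6 and 84.6 at PND 3, with 1 of 6 samples of PND 3 detected. Its fitted fold of 18.2 (log2 change 4.19 ± 0.47, adjusted p = 1.66e-10) thus rests on a baseline near background, and was 39.0 with normexp correction and 2.69 without replicates 1 to 4 of PND 22 (log2 change 1.43, adjusted p = 9.41e-04). Of the 18 pancreas markers 16 were higher at PND 22 and 0 lower (17 and 0 at an unadjusted p under 0.05 in limma, median 2.73), with the insulin genes Ins1 (2.66) and Ins2 (at least 3.39-fold, not detected at PND 3) among them. Without replicate 5 of PND 22 alone, Cela2a stood 28.9-fold, Cela3b 26.1-fold, Cpa1 16.7-fold and Pnliprp1 34.1-fold higher, each over 1.5 times its value with all 6 samples (18.2, 16.5, 11.1 and 20.8). Without replicates 1 to 4, 5 markers were higher and 1 lower, the log2 change of Pnlip was 3.48 (adjusted p = 1.31e-17), and those of Cela3b (1.31, adjusted p = 0.102), Cpa1 (0.92, adjusted p = 0.0592) and Pnliprp1 (1.24, adjusted p = 0.196) no longer passed. Tff2, a trefoil peptide of stomach and pancreas ducts, followed the same samples, with 1397 and 959.7 in replicates 2 and 3 and 81.6 and 115 in replicates 5 and 6. It was not detected at PND 3 and stood at least 4.44-fold higher at PND 22, and its fitted fold was 1.76 without replicates 1 to 4 in place of 5.66.

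The largest falls were led by genes of lipoproteins and of the brush border. Apoc2, a cofactor of lipoprotein lipase carried on chylomicrons, had signals of 69.2, 83.9 and 154 at PND 22, against 1425, 2032 and 2263 at PND 3, and was 21.5-fold lower (log2 change -4.43 ± 0.40, adjusted p = 2.89e-13). The highest sample of PND 22 was replicate 5, the one with the high liver markers. Alpi, the alkaline phosphatase of the small intestinal brush border, had signals of 54.8, 94.1 and 383 at PND 22, against 1437, 2424 and 2671 at PND 3, a 20.009-fold lower level (log2 change -4.32 ± 0.50, adjusted p = 3.91e-10), and it was detected in 3 of 6 samples of PND 22. Anpep, aminopeptidase N of the brush border, had signals of 81.7, 94.7 and 101 at PND 22, against 894, 1479.9 and 1889 at PND 3, and was 14.7-fold lower (log2 change -3.88 ± 0.35, adjusted p = 2.20e-13). Mamdc4, known in the rat as endotubin of the apical endosomes of suckling enterocytes, had signals of 523, 858 and 961 at PND 3 and was not detected in any sample of PND 22, a level at least 11.4-fold lower (adjusted p = 2.72e-15).

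Further genes of the intestinal epithelium stood beside them. Lgals2, a galectin, had signals of 86.8, 91.9 and 114 at PND 22, against 855, 1349 and 1671 at PND 3, and was 13.5-fold lower (log2 change -3.76 ± 0.30, adjusted p = 3.77e-15). Prap1, a proline-rich acidic protein of the intestinal lining, had signals of 82.6, 90.1 and 103 at PND 22, against 728, 1009 and 1126 at PND 3, and was 10.8-fold lower (log2 change -3.43 ± 0.40, adjusted p = 4.71e-10). Ms4a10, a membrane protein of the MS4A family, had signals of 66.6, 74.3 and 90.8 at PND 22, against 607, 844 and 909.6 at PND 3, and was 10.5-fold lower (log2 change -3.39 ± 0.24, adjusted p = 8.07e-17). Not every brush border gene fell. Of 15 genes of brush border digestion 5 were lower and 4 higher (median -0.10), and the 4 that rose, Myo1a (1.51), Espn (0.95), Mep1a (0.75) and Vil1 (0.53), are parts of the microvillus core and a metalloprotease. Of 12 small intestine markers 3, Cck and Slc10a2 among them, were higher and 2, Alpi and Otc, lower (median -0.002). The defining markers Lct (lactase), Gip, Gata4 and Tmprss15 were detected in 0 of 6 samples of PND 22. Lack of detection was not particular to that age, as 5 of the 12 were detected in no sample of PND 22 and 4 in no sample of PND 3. The list summed to 951, 1056 and 1317 at PND 22, against 2401, 3452 and 3883 at PND 3, most of it from the neonatal signal of Alpi.

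Genes of endocytosis and of the lysosomal breakdown of milk proteins, which are features of suckling enterocytes, were mostly lower too. Of 18 measured genes of this list 11 were lower and 2 higher (median -0.57). Ctsl, the lysosomal protease cathepsin L, had signals of 929.5, 1164 and 1763 at PND 22, against 5982, 7297 and 8434 at PND 3, and was 5.72-fold lower (log2 change -2.52 ± 0.23, adjusted p = 2.67e-13). Dab2, an endocytic adaptor, was 5.25-fold lower (log2 change -2.39 ± 0.20, adjusted p = 2.56e-14). Cubn, the receptor cubilin, was not detected in any sample of PND 22 and stood at least 2.73-fold lower, and Amn, the partner that carries cubilin to the cell surface, was 3.61-fold lower (log2 change -1.85 ± 0.33, adjusted p = 6.30e-06). Glb1, the lysosomal beta-galactosidase, was 3.42-fold lower (log2 change -1.77 ± 0.18, adjusted p = 1.15e-11). The members that rose were Scarb2 (1.22) and Ctsd (0.69).

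Growth factors and products of fetal tissue were the other group among the largest falls. Igf2, the imprinted insulin-like growth factor of fetal growth, had signals of 188, 236 and 385 at PND 22, against 3011, 5177 and 7352 at PND 3, a 19.9-fold lower level (log2 change -4.32 ± 0.20, adjusted p = 2.68e-24). Mdk, midkine, a heparin-binding growth factor, had signals of 149.8, 188 and 235 at PND 22, against 1754, 1879 and 2222 at PND 3, and was 10.2-fold lower (log2 change -3.35 ± 0.14, adjusted p = 2.05e-26). Afp, alpha-fetoprotein, spread widely in the neonates, with signals of 235, 529 and 1788 at PND 3, and was not detected in any sample of PND 22, at least 9.02-fold lower (adjusted p = 2.21e-04). Without replicates 1 to 4 of PND 22 the log2 change of Afp was -3.48 and the adjusted p was 0.0175, which did not pass. Of 19 fetal growth and imprinted genes 13 fell and 0 rose (14 and 0 at an unadjusted p under 0.05 in limma, median -1.03), among them Dlk1 (5.63-fold lower), Gpc3 (-2.44), Plagl1 (-1.63) and both receptors, Igf1r (-1.01) and Igf2r (-1.08).

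Each change was then placed in time within the suckling period. A gene was called complete before PND 15 where it had already changed the same way from PND 3 to PND 10. It also had to stand at 80% or more of its final log2 change at both PND 10 and PND 15. Its step from PND 10 to PND 22 had not to pass the test, which does not show that the level stayed still. The share had no upper limit and the step from PND 15 to PND 22 was not part of this rule. A gene that overshot and then turned back could therefore count as complete. A gene was called late where 20% or less of the change stood at PND 15 and the step from PND 15 to PND 22 passed the test. All these contrasts share samples of PND 3 or PND 22, so that the shares are a description. From PND 3 to PND 5, 3 named genes passed (0.0225%), to PND 7 460 (3.45%), to PND 10 1114 (8.35%) and to PND 15 2295 (17.2%), while 3073 (23%) passed from PND 15 to PND 22.

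Few changes were complete before PND 15. Of the 1873 genes that rose 66 (3.52%) were complete and 626 (33.4%) late, and of the 2168 that fell 155 (7.15%) were complete and 665 (30.7%) late. In simulated data with 1.5-fold changes the rules caught 70% of complete probes and 90% of late ones. Small complete changes were thus missed more often there than small late ones. The median gene that rose had made 5.31% of its change by PND 5, 11.0% by PND 7, 24.3% by PND 10 and 33.9% by PND 15. The median gene that fell had made 7.11%, 18.4%, 26.8% and 46.8% by the same ages. Among the 385 genes at least 2-fold higher 8 were complete, 94 late and 283 in between, and among the 407 at least 2-fold lower 20 were complete, 164 late and 223 in between. Of those 407, 103 (25.3%) had a mean log2 signal at PND 10 above that of PND 3. These were counted without a test or a minimum size of the step, so that unchanged genes may be among them. The counts of complete genes depend on PND 22 as the end point, and without its replicates 1 to 4 they were 34 higher and 81 lower. Of the largest changes, Car3 alone of the 12 rises and 0 of the 12 falls met the rule for complete. Pnlip, Spink4 and Cela2a were late.

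**Figure D3:**
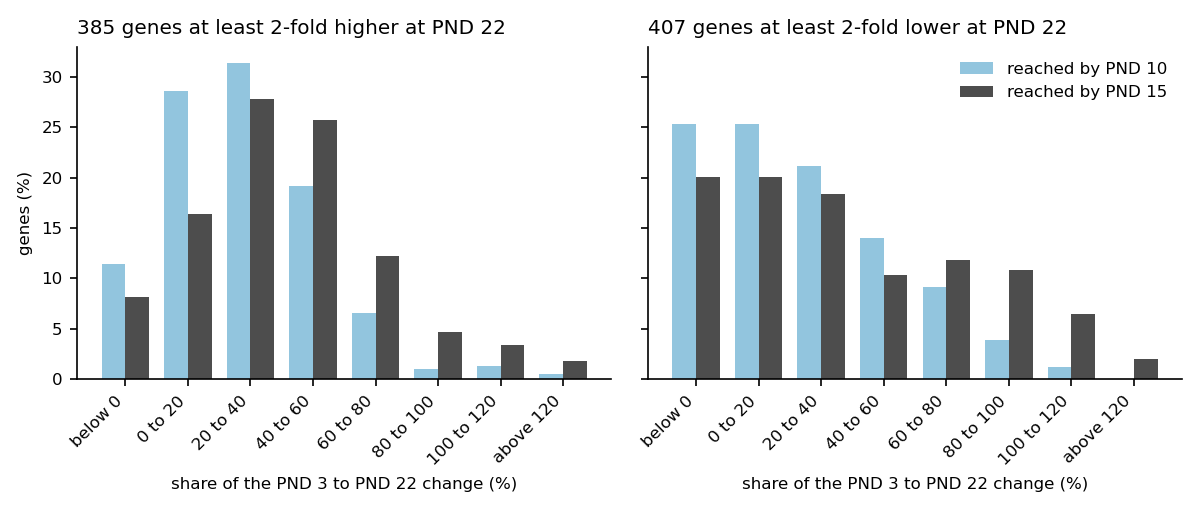
Share of the log2 change from PND 3 to PND 22 (x axis, %) that genes at least 2-fold higher (left) or lower (right) at PND 22 had reached by PND 10 (light) and PND 15 (dark), as percent of genes (y axis). At PND 10, 1.0% of the 385 higher genes and 3.9% of the 407 lower genes stood at 80 to 100% of their change. A further 1.3% and 1.2% stood at 100 to 120%, and 0.5% and 0.0% above 120%. Below 0 stood 25.3% of the lower genes and 11.4% of the higher ones.

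The falls complete before PND 15 were led by genes best known from liver and small intestine. Leap2, an antimicrobial peptide and ghrelin receptor antagonist made in liver and small intestine, had signals of 441, 815 and 916 at PND 3, 61.0, 104 and 152 at PND 10, 57.3, 61.7 and 66.4 at PND 15 and 58.3, 70.2 and 134 at PND 22. By PND 10 it had made 87.1% of its 10.00-fold fall (log2 change -3.32 ± 0.37, adjusted p = 1.60e-10). Slc2a2, the glucose transporter GLUT2, had signals of 426, 501 and 692 at PND 3, 59.5, 72.5 and 122 at PND 10, 53.9, 58.2 and 61.3 at PND 15 and 59.6, 67.1 and 97.8 at PND 22. At PND 10 95.8% of its 7.40-fold fall was made (log2 change -2.89 ± 0.30, adjusted p = 2.23e-11). Cps1, which starts the urea cycle, had signals of 224, 399 and 577 at PND 3, 68.9, 80.4 and 113 at PND 10, 42.2, 53.8 and 57.6 at PND 15 and 53.1, 58.1 and 83.8 at PND 22, and was 6.38-fold lower in the end (log2 change -2.67 ± 0.29, adjusted p = 5.10e-11).

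These genes ended at the lower end of what the array resolves. At PND 22 Leap2 was detected in 3 of 6 samples, Slc2a2 in 2 and Cps1 in 1, so that the last part of their decline is not measured. Slc2a2 and Cps1 were highest at PND 22 in replicate 5, at 97.8 and 83.8, the sample with the high liver markers. Without replicate 5 the log2 changes were -2.98 for Slc2a2 and -2.76 for Cps1. Of the 14 liver markers 0 were higher and 0 lower in limma (4 and 3 at an unadjusted p under 0.05), and 5 were higher without replicates 1 to 4 of PND 22.

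The other complete falls stayed mostly above the detection limit. Mttp, the transfer protein that loads fat onto nascent lipoproteins, had signals of 295, 454 and 593 at PND 3, 74.8, 105 and 150.1 at PND 10 and 67.5, 78.2 and 98.4 at PND 22, a 5.52-fold fall (log2 change -2.46 ± 0.32, adjusted p = 6.30e-09), and 5 of 6 samples of PND 22 detected it. Maob, a monoamine oxidase, had signals of 348, 597 and 828 at PND 3, 137, 221 and 300.4 at PND 5, 88.6, 106 and 130.4 at PND 10 and 68.4, 84.7 and 149 at PND 22, a 6.40-fold fall (log2 change -2.68 ± 0.28, adjusted p = 2.63e-11). Maob sat at the edge of the rule, with 80.3% of its change at PND 15, and met it in 24 of 37 refits with another normalisation, threshold or set of samples. Amn overshot, with signals of 1275, 2035 and 2263 at PND 3, 218, 272 and 486 at PND 15 and 325, 562 and 644 at PND 22, which puts it at 143% of its final change at PND 15. Amn and Slc2a2 met the rule in 37 of 37 refits, Leap2 and Cps1 in 36 and Mttp in 34. Most refits share nearly all samples, and a looser threshold cannot lose a gene, so that such counts of refits are no independent checks.

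Fewer rises met the rule for complete, and they were of mixed kind. The medians of Car3 and Cfb were higher at PND 15 than at PND 22, so that these rises were partly reversed after PND 15. Car3 had signals of 88.1, 109.5 and 149 at PND 3, 101, 261 and 932 at PND 7, 417, 1468 and 2143 at PND 10, 1407, 2444 and 4595 at PND 15 and 1354, 1862 and 2272 at PND 22. Cfb, complement factor B, had signals of 189, 209.5 and 232 at PND 3, 319, 643 and 1353 at PND 10, 804, 1076 and 1341 at PND 15 and 461, 591 and 1078 at PND 22, a 3.01-fold rise (log2 change 1.59 ± 0.20, adjusted p = 2.84e-09). Trpv1, the capsaicin-gated channel of sensory nerves, was detected in 1 of 6 neonates, had signals of 146, 220.2 and 400.1 at PND 10 and 114, 269 and 348 at PND 22, and had a fitted fold of 3.66 (log2 change 1.87 ± 0.22, adjusted p = 4.80e-10), which was 7.21 with normexp correction and 5.37 without replicates 1 to 4 of PND 22. Acta1, the skeletal muscle actin, had signals of 99.9, 123 and 151 at PND 3, 349, 483 and 601 at PND 10 and 207, 328 and 993 at PND 22 (log2 change 1.66 ± 0.20, adjusted p = 1.24e-09). Its highest samples of PND 22 were replicates 1 and 2, which also had the most smooth muscle signal, and 1 other of 13 skeletal muscle markers changed, Ckm, which fell 2.65-fold, or 4.15-fold without replicates 1 to 4. Prl2a1, a prolactin relative best known from rat placenta, was not detected at PND 3 and stood at least 2.24-fold higher at PND 22. Dnai7, an axonemal dynein component, was 2.55-fold higher (log2 change 1.35 ± 0.22, adjusted p = 1.77e-06). Cfb met the rule in 37 of 37 refits, Trpv1 and Dnai7 in 36, Car3 in 35, Acta1 in 34 and Prl2a1 in 32.

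**Figure D4:**
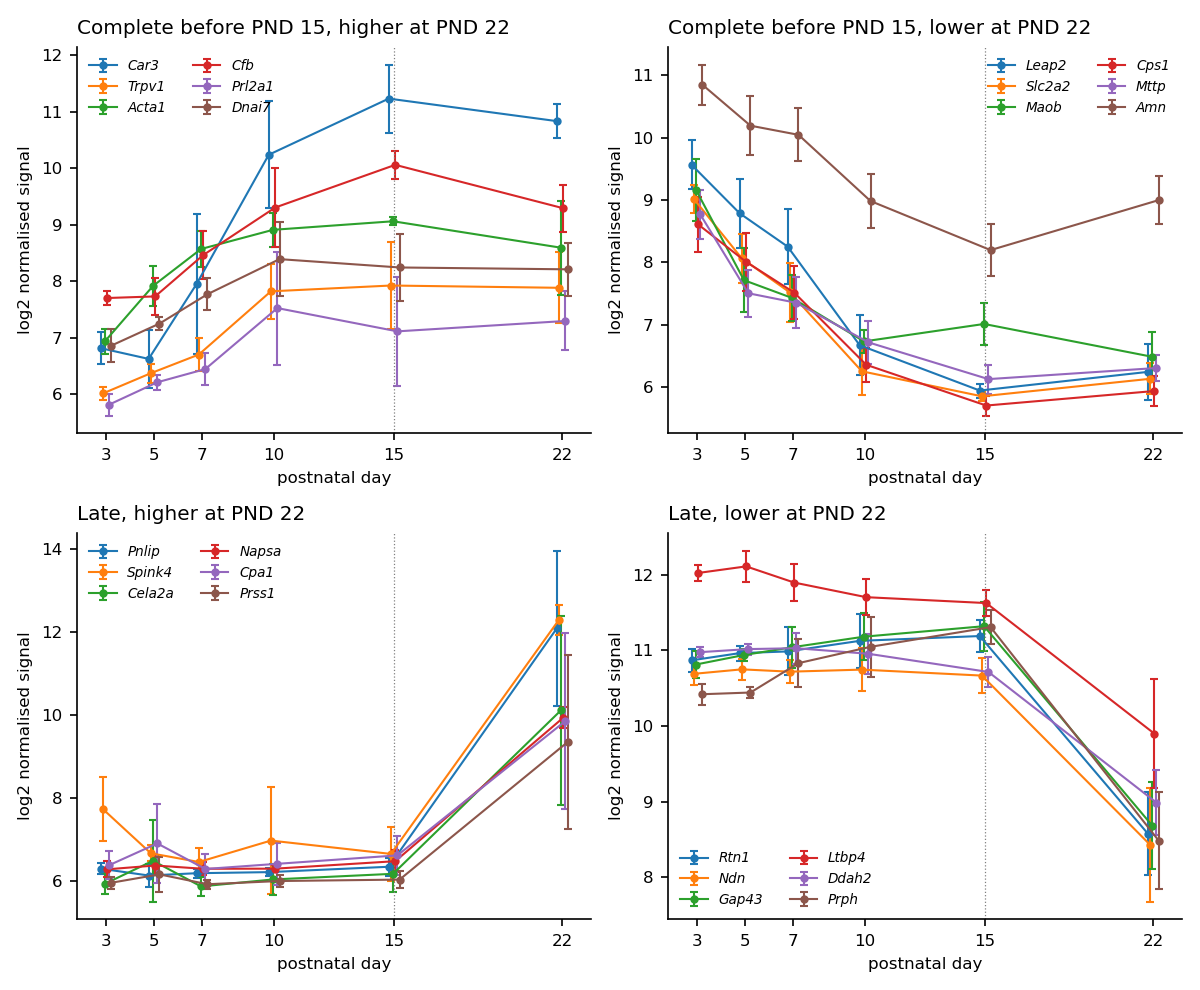
Mean log2 normalised signal with SD (y axis, n = 6 at each age) by postnatal day (x axis) for the 6 largest changes complete before PND 15 and the 6 largest late changes in each direction, with PND 15 marked by a dotted line. Late rises stand at 20% or less of their change at PND 15 and then climb, with wide bars for Pnlip, Cela2a, Cpa1 and Prss1, while Leap2, Slc2a2 and Cps1 reach the detection limit by PND 10 to PND 15.

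Promoter sequences are shown for a pair of early falls and a pair of rises, of which that of Pnlip was late, so that the stretch around their start sites can be read beside the values. They are the 300 bases from 250 before to 50 after the annotated start in RefSeq, on build GRCr8 and in the direction of transcription. Capitals mark 3 short motifs, found on either strand and without overlap with each other in these promoters: the TATA box TATAAA, the HNF1-type site GTTAAT and the GATA site GATAAG. Leap2 lies at chr10:38082024-38082323 on the minus strand, Cps1 at chr9:76063613-76063912, Fabp1 at chr4:104749090-104749389 and Pnlip at chr1:267784360-267784659, the last 3 on the plus strand.
Leap2: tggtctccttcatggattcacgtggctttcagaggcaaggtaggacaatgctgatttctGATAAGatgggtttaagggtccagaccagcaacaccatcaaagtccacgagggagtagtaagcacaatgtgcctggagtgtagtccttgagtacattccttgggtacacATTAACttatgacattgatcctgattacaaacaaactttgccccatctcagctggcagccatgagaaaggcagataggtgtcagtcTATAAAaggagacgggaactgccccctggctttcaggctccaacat
Cps1: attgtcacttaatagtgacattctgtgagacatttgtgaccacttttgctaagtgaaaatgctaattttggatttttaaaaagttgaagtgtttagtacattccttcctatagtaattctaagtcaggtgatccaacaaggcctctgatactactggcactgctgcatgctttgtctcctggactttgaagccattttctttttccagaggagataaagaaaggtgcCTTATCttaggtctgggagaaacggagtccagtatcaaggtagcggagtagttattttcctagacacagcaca
Fabp1: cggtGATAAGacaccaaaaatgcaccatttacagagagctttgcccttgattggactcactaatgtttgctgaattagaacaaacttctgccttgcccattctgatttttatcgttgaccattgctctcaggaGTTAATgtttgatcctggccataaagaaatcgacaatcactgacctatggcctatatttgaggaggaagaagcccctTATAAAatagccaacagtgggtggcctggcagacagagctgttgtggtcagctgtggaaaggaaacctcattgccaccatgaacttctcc
Pnlip: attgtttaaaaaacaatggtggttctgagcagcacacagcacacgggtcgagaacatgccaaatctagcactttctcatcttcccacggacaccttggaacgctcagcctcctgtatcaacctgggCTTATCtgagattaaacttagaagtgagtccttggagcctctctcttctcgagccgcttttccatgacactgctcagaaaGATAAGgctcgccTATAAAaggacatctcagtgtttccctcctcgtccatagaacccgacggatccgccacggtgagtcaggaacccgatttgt

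Of the 136 genes named by rule 104 had a promoter in the RefSeq table. The Fabp1 promoter holds all 3 motifs, with TATAAA beginning 40 bases and GTTAAT 117 bases before the start, and Pnlip holds TATAAA at 31 bases before and GATAAG on both strands. Leap2 also holds all 3, its TATAAA lying after the annotated start, while Cps1 holds only a GATAAG on the opposite strand, 23 bases before the start. TATAAA occurs in 14.2% of all 33469 promoters of this length, GTTAAT in 7.5% and GATAAG in 7.1%. Of the 8 largest rises with a promoter 4 held TATAAA, 2 GTTAAT and 3 GATAAG, and of the 11 largest falls 3, 4 and 1 held them. A gene was counted where any of its promoters held the motif, whereas the percentages are shares of single promoters, so that the units differ. A match is only a match of letters, and no factor was measured on these sequences.

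Of the 6 largest late rises 4 were of pancreas genes, the others being Spink4 and Napsa. Spink4 had signals of 132, 183 and 476 at PND 3, 69.0, 78.0 and 610.2 at PND 10, 66.6, 81.1 and 190.1 at PND 15 and 3319, 5567 and 6189 at PND 22, so that its median first declined. Napsa, a lysosomal aspartic protease, had signals of 64.1, 77.1 and 89.6 at PND 3, 70.8, 88.4 and 109 at PND 15 and 758, 1010.2 and 1154 at PND 22, a 12.6-fold rise (log2 change 3.66 ± 0.11, adjusted p = 4.79e-32). Unlike the pancreas genes Napsa was even over the 6 samples of PND 22, and without replicates 1 to 4 its log2 change was 3.54. All 16 pancreas markers that rose were late, Pnlip, Cela2a, Cpa1 and Prss1 among them. Prss1, cationic trypsinogen, was not detected in any sample of PND 3 and stood at least 9.27-fold higher at PND 22, with signals of 82.6, 939.6 and 3309 there. Its fitted fold was 1.81 without replicates 1 to 4 of PND 22, 6.39 without replicates 1 and 2 and 15.9 without replicate 5, in place of 10.5. Pla2g2a had made 1.89% of its rise and Slc26a3 12.2% by PND 15.

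Of the 6 largest late falls Rtn1, Prph, Gap43 and Ndn are genes of neurons. Rtn1, a reticulon of neuroendocrine cells, had signals of 1596, 1903 and 2069 at PND 3, 1708, 2135 and 3191 at PND 10, 1936, 2286 and 3032 at PND 15 and 272, 320.4 and 681 at PND 22, a 4.89-fold fall (log2 change -2.29 ± 0.20, adjusted p = 6.44e-14). Prph, peripherin, an intermediate filament of peripheral neurons, had signals of 1232, 1366 and 1573 at PND 3, 2001, 2565 and 2995 at PND 15 and 221, 302 and 751 at PND 22 (log2 change -1.93 ± 0.17, adjusted p = 2.14e-13), so that it stood higher at PND 15 than at PND 3 before it fell. Gap43, a growth cone protein, had signals of 1443, 1799 and 2089 at PND 3, 1916, 2475 and 3509 at PND 15 and 281, 355 and 740.2 at PND 22 (log2 change -2.13 ± 0.21, adjusted p = 2.28e-12). Ndn, the imprinted neuronal gene necdin, was 4.78-fold lower (log2 change -2.26 ± 0.17, adjusted p = 8.82e-16), Ltbp4, which tethers latent TGF-beta in the matrix, 4.35-fold lower (log2 change -2.12 ± 0.16, adjusted p = 6.12e-16), and Ddah2, which degrades an inhibitor of nitric oxide synthase, 3.97-fold lower (log2 change -1.99 ± 0.13, adjusted p = 4.03e-18). In all 6 genes replicates 1 and 2 were the highest of PND 22, and every sample of PND 22 still lay below every sample of PND 3. Without replicates 1 to 4 Ltbp4 was 6.55-fold lower.

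As a list, enteric neuron and glia genes fell late. Of 16 measured 10 were lower, 0 higher (11 and 2 at an unadjusted p under 0.05 in limma), and all 10 were late (median -0.63). Their summed signal had a lowest, median and highest value of 5363, 6004 and 6504 at PND 3, 6428, 8229.5 and 10953 at PND 10, 7739, 9699 and 12663 at PND 15 and 1802, 2059 and 4058 at PND 22. The summed signal of smooth muscle genes was 36980.0, 40219.9 and 42797 at PND 3, 48801, 51663 and 55341 at PND 15 and 17676, 25491 and 47997 at PND 22. Of 15 smooth muscle genes 7 were lower and 0 higher (10 and 0 at an unadjusted p under 0.05, median -0.50), against 12 lower without replicates 1 and 2 of PND 22 or without replicates 1 to 4, and 4 lower after scaling to the 75th percentile. Tpm1, a tropomyosin, was 4.00-fold lower (log2 change -2.002 ± 0.20, adjusted p = 5.35e-12), and Myocd, the coactivator that drives smooth muscle genes, 2.63-fold lower (log2 change -1.39 ± 0.15, adjusted p = 8.84e-11). Desmin, Des (0.31), and calponin, Cnn1 (-0.50), did not pass. Of 31 collagen and matrix genes 21 were lower and 0 higher (24 and 1 at an unadjusted p under 0.05, median -0.9999), and 18 of the 21 were late. Col5a1 was 3.96-fold, Col14a1 3.46-fold, Lum (lumican) 3.35-fold and Col5a2 3.25-fold lower, and the main fibrillar collagens Col1a1 (-1.53), Col1a2 (-0.9999) and Col3a1 (-1.12) fell as well. The collagen sum was highest within PND 22 in replicates 1 and 2, at 42958 and 52789, and between 19744 and 25524 in the other 4, against 59577 to 68598 at PND 3. Without replicates 1 to 4 Col5a1 was 6.08-fold, Lum 5.20-fold and Col5a2 4.96-fold lower.

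Cell cycle genes fell, and 0 of them late. Of 32 measured 26 were lower and 0 higher (26 and 1 at an unadjusted p under 0.05 in limma, median -0.81), 6 of them complete before PND 15 and 0 late. Among the 26, the median share of the change made was 61.5% by PND 10 and 102.9% by PND 15. The replicative helicase subunits Mcm6 (2.46-fold) and Mcm2 (2.28-fold), the kinase Cdk4 (2.76-fold) and the tubulin-binding Stmn1 (2.62-fold) had the largest falls. Mcm6 had signals of 991, 1049.9 and 1218 at PND 3, 527, 614 and 760.2 at PND 10, 384, 464 and 575 at PND 15 and 369, 429 and 530.2 at PND 22. Without replicates 1 and 2, and without replicates 1 to 4 of PND 22, the count of lower members was again 26.

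Most genes of nitrogen metabolism that changed were lower. Of 15 genes of the urea cycle and of polyamines 8 fell and 3 rose (median -0.40), and 4 of the 11 were complete before PND 15. Ass1, which makes argininosuccinate, had signals of 119, 147 and 188 at PND 22, against 823, 1126 and 1761 at PND 3, and was 8.07-fold lower (log2 change -3.01 ± 0.34, adjusted p = 1.57e-10). Otc, which makes citrulline, had signals of 256.3, 333 and 525 at PND 3, 60.5, 95.5 and 129.5 at PND 10 and 82.8, 99.1 and 148 at PND 22 and was 3.44-fold lower (log2 change -1.78 ± 0.26, adjusted p = 1.18e-07). Oat, the ornithine aminotransferase, was 3.81-fold lower (log2 change -1.93 ± 0.16, adjusted p = 1.25e-14). Arg2, the mitochondrial arginase, rose (0.87). Cps1 and Otc, the mitochondrial enzymes from ammonia to citrulline, were both complete before PND 15.

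Genes of energy metabolism rose by small amounts. Of 27 genes of the mitochondrial respiratory chain 18 were higher and 0 lower (23 and 0 at an unadjusted p under 0.05 in limma, median 0.37), and 12 of the 18 were late. After scaling to the 75th percentile 26 were higher, with a median of 0.73. Cytochrome c, Cycs, was 2.10-fold and the cytochrome oxidase subunits Cox6c 2.20-fold, Cox5a 1.84-fold and Cox5b 1.56-fold higher. Of 22 genes of fatty acid oxidation and ketogenesis 10 rose and 2 fell (median 0.27), and 5 rose without replicates 1 to 4 of PND 22. The coactivator Ppargc1a (1.93-fold), the very long-chain dehydrogenase Acadvl (1.80-fold) and the carnitine transferase Cpt1a (1.70-fold) rose, although Cpt1a did not pass without those replicates (adjusted p = 0.0182). Acot1, an acyl-CoA thioesterase, fell 2.47-fold. Of 13 cholesterol synthesis genes 2 rose and 2 fell (15.4% each, near the share of all named genes), each by less than 1.5-fold. Fdft1, squalene synthase, averaged 539 ± 51.5 at PND 3, 299 ± 35.0 at PND 15 and 674 ± 108 at PND 22 (SD, n = 6 each), and its rise did not pass in 13 of 23 refits.

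Bile acid and steroid genes, hormone targets and the clock gave smaller groups. Of 15 bile acid and steroid genes 9 rose and 1 fell (median 0.55). Abcc3, an export pump for bile acid conjugates, was 3.10-fold (log2 change 1.63 ± 0.12, adjusted p = 1.52e-16), Cyp27a1, a sterol hydroxylase, 3.05-fold (log2 change 1.61 ± 0.12, adjusted p = 9.89e-16) and Hsd17b2, which inactivates sex steroids, 2.72-fold higher (log2 change 1.45 ± 0.17, adjusted p = 7.25e-10). Of 19 targets of glucocorticoid and thyroid hormones 8 rose and 3 fell (median 0.38). Thrsp, a thyroid hormone-induced lipogenic gene that is also abundant in fat cells, was not detected at PND 3 and stood at least 4.86-fold higher at PND 22, and the part of adipose tissue in this was not tested. Klf9, a transcription factor induced by both hormones, had signals of 304, 359 and 415 at PND 3, 556, 808 and 1095 at PND 10, 712, 1147 and 1316 at PND 15 and 909.6, 946 and 1225 at PND 22. Sgk1, the aldosterone- and glucocorticoid-induced kinase, rose 2.56-fold (log2 change 1.36 ± 0.18, adjusted p = 1.66e-08) and was late. Mt1, metallothionein, a zinc-binding protein, averaged 15433 ± 3589.8 at PND 3 and 13152 ± 4839 at PND 10, then 2876 ± 1542 at PND 15 and 3067 ± 1422 at PND 22 (SD, n = 6 each), and most of its 5.35-fold fall lay between PND 10 and PND 15. Of 13 clock genes (23.1% higher and 7.69% lower, not far from all named genes) 3 rose, Npas2 (2.03-fold), Bmal1 (1.95-fold) and Nr1d1 (1.94-fold), and 1 fell, Nfil3 (1.74-fold). The hour at which tissue was taken is not given in the sources used here. Of 17 enteroendocrine genes 5 rose and 2 fell, among them cholecystokinin, Cck (2.25-fold), chromogranin B, Chgb (2.15-fold), and neurotensin, Nts (2.03-fold), which rose (Nts not without replicates 1 to 4 of PND 22, adjusted p = 0.0454), and the tachykinin gene Tac1, which fell 2.11-fold and is also made by enteric neurons.

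Adipose and blood markers complete the account of neighbouring tissues. Of 13 adipose and mesentery markers 8 rose and 0 fell (11 and 0 at an unadjusted p under 0.05, median 0.74), among them Fabp4, a fatty acid-binding protein of fat cells (2.94-fold), Msln, mesothelin of the serosa (2.68-fold), and Cfd, adipsin (2.08-fold). The median member that rose had made 60.3% of its change by PND 10 and 92.8% by PND 15. Of 12 blood markers 0 rose and 0 fell in limma (1 and 3 at an unadjusted p under 0.05).

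**Figure D5:**
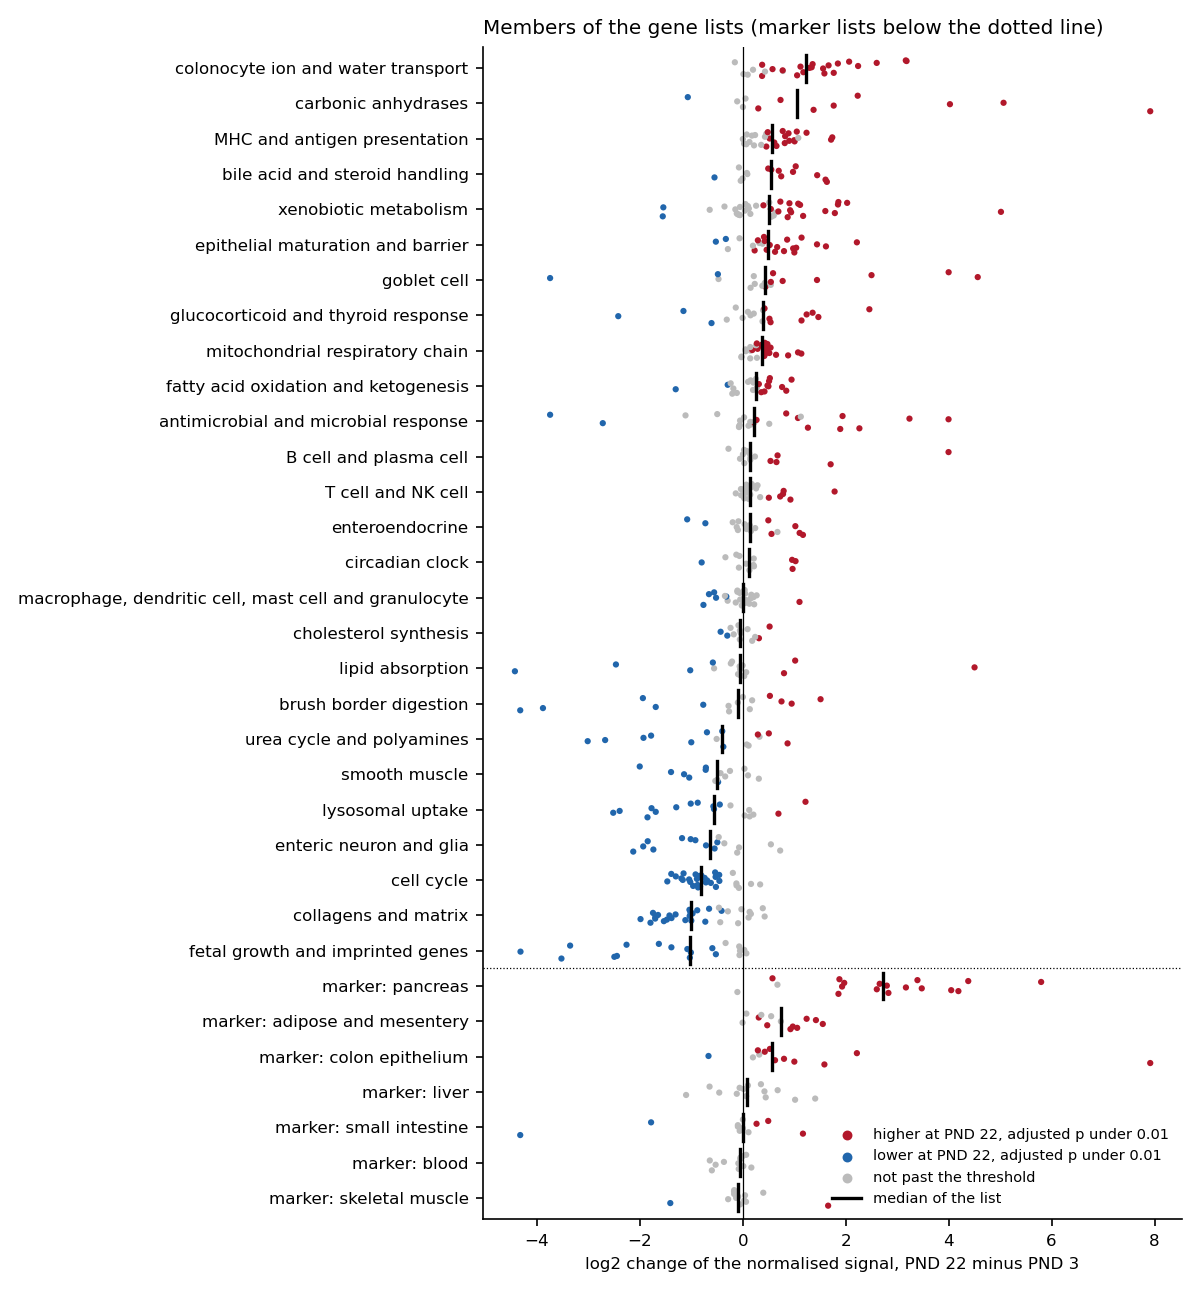
Log2 change of the normalised signal, PND 22 minus PND 3 (x axis), of each measured member of 33 gene lists (rows, ordered by median, marker lists below the dotted line). Red members were higher and blue members lower at an adjusted p under 0.01, grey members did not pass, and black bars are list medians, which run from 1.24 for colonocyte ion and water transport to -1.03 for fetal growth and imprinted genes above the dotted line.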

How the data were processed

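Per the labels, RNA of colon and brain was labelled by the TotalPrep protocol and hybridised to Illumina RatRef-12 BeadChips. The deposited intensity of each of 22523 probes and its detection p-value, computed by the authors' scanner software against negative control beads, were used here. The authors' normalised values, quantile normalised, are deposited as well. These were log2 transformed here and kept as an alternative. They differed from the values computed here by at most 0.194 on the log2 scale. Which chip carried which sample is not given in the sources used here, so that no chip effect could be fitted.

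Intensities of 107 arrays (53 colon, 54 brain) were quantile normalised together, floored at 1 and log2 transformed. A linear model of the 9 colon ages was fitted over all probes with limma 3.58.1 in R 4.3.3, with Benjamini-Hochberg adjustment and a threshold of 0.01. A probe was named where the platform annotation gave 1 symbol (13793 probes, 13337 genes, the brightest probe per gene), and 8730 probes had no name. For genes undetected at 1 age, "at least" folds compare the brighter age with the higher of the probe's own signal and the array's detection limit. The genes named were the 12 largest rises and falls, the 6 largest complete and late changes in each direction, and the members of each list with the largest called changes. All but the list members had to have separate ranges at PND 3 and PND 22 and a detected signal throughout the age of higher level. Members and gene lists were chosen with earlier results of these data known. In data simulated for PND 22 minus PND 3 over 22523 probes, 99% to 100% of probes changed 2-fold and 83% to 97% of those changed 1.5-fold were called, and 0.0182% of unchanged probes. The rule for complete caught 70% of probes changed 1.5-fold by PND 10 and 97% of those changed 2-fold. The rule for late caught 90% and 96%. Each simulated probe had 1 spread at all ages, whereas the arrays of PND 22 correlated less with each other than those of PND 3. The number of arrays limits the precision.

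Alternatives were other background corrections, scalings, filters, thresholds and fits, leaving out each replicate, and, chosen after seeing the data, leaving out replicates 1 to 4 or 1 and 2 of PND 22. Sequences came from RefSeq tables and were searched with Python 3.11.15.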

Additional observations from a re-analysis of the deposited data

Results flagged for a closer look

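Among the named genes, 22 of 272 groups of 6 samples (8.09%) held a sample far from the other 5, by a test that marks about 1 in 20 groups by chance. At PND 22, 9 groups were marked. Replicate 1 was high for Cdk4 (505, the others 332 to 381) and Cfb (1078, the others 461 to 624). Replicate 2 was low for Cyp27a1 (265, against 358 to 395), Hsd17b2 (608, against 1286 to 1747) and Pck1 (1132, against 2044 to 2739). Replicate 5, with the high liver markers, was high for Apoc2 (154, against 69.2 to 85.5), Cps1 (83.8, against 53.1 to 62.4) and Slc2a2 (97.8, against 59.6 to 71.1). Replicate 6 was low for Nfil3 (218, against 267 to 288).

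At PND 3, 13 groups were marked, 7 of them by replicate 5. It was high for Car1 (114, the others 62.5 to 65.6), and low for Leap2 (441, against 776 to 916), Lgals2 (855, against 1306 to 1671), Mvd (324, against 405 to 453), Pck1 (569, against 852 to 1026), Prap1 (728, against 958 to 1126) and RT1-S3 (126, against 182 to 219). Replicate 2 was low for Acadvl (264, against 333 to 369) and Car9 (60.2, against 71.7 to 79.1). Single samples were high for Dlk1 (535 in replicate 3, against 299.6 to 351), Cela2a (84.6 in replicate 4, against 52.4 to 62.1), Blnk (136 in replicate 6, against 67.2 to 77.3) and Ms4a1 (61.3 in replicate 6, against 50.7 to 53.8). For Ms4a1 at PND 3 all 6 signals lie under the detection limit of 66.1 to 72.2 and have no resolved order, as do those behind the marks of Car9, Cela2a, Car1, Cps1 and Slc2a2 in part.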

How the results depend on the processing

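The counts of probes changed kept their size under most settings. With a 1.5-fold minimum added, 1257 probes were higher and 1320 lower. Leaving out 1 replicate at a time gave 2428 to 2664 higher and 2673 to 2874 lower probes. The timing counts were less stable. Changes complete before PND 15 numbered 35 higher after scaling to the 75th percentile, and 34 higher and 81 lower without replicates 1 to 4 of PND 22. Leaving out 1 replicate gave 56 to 71 complete changes higher and 126 to 167 lower, with 553 to 674 late changes higher and 583 to 736 lower. The cause of these shifts was not tested. The replicate numbers of the ages did not pair the samples, with same-numbered samples correlating between -0.119 and 0.00397 in their deviations. A fit with the replicate number as a block gave 2630 higher and 2860 lower probes.

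Of the 136 named genes refitted 3127 times, 3096 fits gave the same call, 31 lost it and 0 changed sign. These genes were chosen for large called changes in the same data, and most refits share nearly all samples. Such agreement was therefore largely set in advance. Fdft1 lost the call in 13 fits, and 12 other genes in the remaining 18. Among these 18 were the fits of Cd74 without replicate 1, Slc10a2 without replicate 3 and Hsd17b7 without replicate 4 of PND 22, with adjusted p of 0.0136, 0.0102 and 0.0116. With normexp background correction dim genes had larger folds, as for Car1 (553-fold in place of 241-fold). Replicate numbers and probe brightness limit what is resolved near the detection limit.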
